A study of Mus musculus with 2 samples.

Results

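The miR-30 family in the lung of the mouse embryo consists of 6 microRNA genes: Mir30a, Mir30b, Mir30c-1, Mir30c-2, Mir30d and Mir30e. They were chosen by name, as the rows of the count tables whose identifiers carry these symbols in GENCODE release M21, and they are 6 of the 1973 genes in the tables. Small RNA (under 30 bases, per the labels) was sequenced from lung tissue of healthy B6NCrl mouse embryos at embryonic day 16.5, in 2 biological replicates of 1 group. The labels name no treatment and no altered allele. Each replicate pools male and female lungs, from 41 embryos in replicate 2 and from a number not stated in the labels in replicate 1. Both carry the same donor entry in the labels, so how far the pools are independent is not known from them. Lung tissue mixes epithelial, mesenchymal, endothelial and blood cells, so fewer cells of a type and less of a microRNA per cell cannot be told apart.

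A microRNA gene is transcribed as a longer RNA that folds into a hairpin, from which either arm (5p or 3p) can be cut as the mature microRNA. Bases 2 to 8 of the mature microRNA, the seed, do most of the pairing with target messenger RNAs, so microRNAs with the same seed are grouped as a family. miR-30 microRNAs are found in most tissues, and their known targets include transcripts of the Snail transcription factor in epithelial cells and of the Notch ligand Dll4 in endothelial cells. The mouse genes lie in pairs on chromosomes 1, 4 and 15.

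The mature sequences show what the reads have to tell apart. RefSeq (GRCm38.p6, the same assembly as mm10) gave entries for 4 of the 6 members, Mir30a, Mir30c-1, Mir30c-2 and Mir30e, and none for Mir30b and Mir30d. The 5p arms are shown first, with the seed in capitals, written 5′ to 3′, and beside them that of Mir384, a gene best known from brain.
miR-30a-5p: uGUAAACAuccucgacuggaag
miR-30e-5p: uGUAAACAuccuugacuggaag
miR-30c-5p: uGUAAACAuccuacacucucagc
miR-384-5p: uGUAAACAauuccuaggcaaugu

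The seed GUAAACA was found in 5 of the 1738 mature entries of the table, those of Mir30a, Mir30c-1, Mir30c-2, Mir30e and Mir384. miR-30a-5p and miR-30e-5p differ at a single base, C13U, counting from 1 at the 5′ end with the base of miR-30a first. miR-30c-5p shares its first 12 bases with each of them and differs from each at 5 of the 22 bases compared. Its sequence is the same whether it comes from Mir30c-1 or from Mir30c-2, while the sequences of miR-30a-5p and miR-30e-5p were each found in only 1 of the 1005 hairpins of the table. miR-384-5p shares only the first 8 bases with the miR-30 arms.

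The 3p arms fall into 2 seed groups, and they are shown because they are what separates the miR-30c genes.
miR-30a-3p: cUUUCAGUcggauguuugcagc
miR-30e-3p: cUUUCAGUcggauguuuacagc
miR-30c-1-3p: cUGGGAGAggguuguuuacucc
miR-30c-2-3p: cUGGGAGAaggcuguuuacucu

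miR-30a-3p and miR-30e-3p differ at a single base, G18A. miR-30c-1-3p and miR-30c-2-3p differ at 3 of 22 bases, which are G9A, U12C and C22U with the base of miR-30c-1-3p first. In the hairpins below the arms are in capitals. The hairpins of Mir30c-1 and Mir30c-2 share an unbroken run of 28 bases, which holds the whole 5p arm, against 18 bases for Mir30a and Mir30e and 12 bases for a miR-30c hairpin with either of them.
Mir30a, chr1:23272269-23272339, plus strand: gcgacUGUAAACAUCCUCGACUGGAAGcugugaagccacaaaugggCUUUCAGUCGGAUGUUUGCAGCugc
Mir30c-2, chr1:23291701-23291784, plus strand: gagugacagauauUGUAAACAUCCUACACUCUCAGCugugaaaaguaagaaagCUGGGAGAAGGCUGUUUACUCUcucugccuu
Mir30e, chr4:120772606-120772697, minus strand: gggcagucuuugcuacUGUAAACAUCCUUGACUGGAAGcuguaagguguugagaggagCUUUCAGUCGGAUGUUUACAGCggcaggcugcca
Mir30c-1, chr4:120769534-120769622, minus strand: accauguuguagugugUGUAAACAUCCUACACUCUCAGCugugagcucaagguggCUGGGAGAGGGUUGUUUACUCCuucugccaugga

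The tables held 6376715 gene counts in replicate 1 and 4123748 in replicate 2, and levels are given in CPM, counts scaled to a total of 1e+06 over all microRNA genes of a library. Reads that match several places in the genome have a line of their own, which held 30.0% of the reads of replicate 1 and 31.8% of those of replicate 2, and they are in no gene's count. Reads of an arm that 2 genes encode can therefore be missing from both genes. The counts do not tell 5p from 3p reads, so the level of a gene is that of both arms together, without reads that match several places. All 14 listed markers of lung epithelium, endothelium, mesenchyme and multiciliated cells reached 10 counts in both libraries. Together they held 21.4% of gene counts in both libraries. The marker lists were chosen with earlier results of these data known, so their detection is not an independent check of the tissue. Of the 12 measured markers of liver, muscle, neurons and blood, 5 reached 10 counts in both libraries, with 0.239% of gene counts in replicate 1 and 0.272% in replicate 2. These 5 moved in opposite directions between the libraries. Liver Mir122 had 111 CPM in replicate 1 and 601 CPM in replicate 2, a 5.39-fold difference and the largest of all genes tested, and skeletal muscle Mir206 had 294 and 643 CPM. Heart Mir208a had 536 CPM in replicate 1 and 324 CPM in replicate 2, red-cell Mir451a 747 and 408 CPM, and myeloid Mir223 697 and 740 CPM. Mir1a-1, Mir133a-1, Mir124a-1 and Mir9-2 were at 0 in both libraries, but reads that match several places are in no gene's count, so a 0 does not show that muscle or neurons were absent. The list of 15 such markers also named Mir1a-2, Mir9-1 and Mir142, which have no row under those symbols. A row named Mir142b, not on the list and outside the shares given, had 1149 CPM in replicate 1 and 1258 CPM in replicate 2. The spread given below is that between these 2 libraries, which may be partly technical.

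The family held 240003 counts in replicate 1 and 150351 in replicate 2. That is 3.76% of gene counts in replicate 1 (95% exact Clopper-Pearson interval 3.75 to 3.78) and 3.65% in replicate 2 (3.63 to 3.66), with a mean of 3.70% ± 0.0833 (SD, n = 2). The share depends on the denominator: the mean was 1.82% of all reads in the table and 2.28% of gene counts and reads that match several places together. These intervals, like all others here, cover counting error only. The miR-30 share stood above that of the miR-26 family, 3.16% ± 0.0379 (SD, n = 2) over 3 genes, and below that of the let-7 family, 16.3% ± 1.01 (SD, n = 2) over 10 genes. The miR-29 family, with 4 genes, held 0.0187% ± 0.00214 (SD, n = 2). Of the 12 let-7 genes listed, Mirlet7e and Mirlet7f-1 had no row under those symbols. Each of these families has an arm that more than 1 gene encodes, and reads of it can be missing from the counts. The shares therefore do not rank the families by amount. All 6 miR-30 genes had at least 10 counts in each library, as had 347 of the 1973 genes in all.

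Nearly all of the family's counts came from 3 genes, 1 of each genomic pair. Mir30e, Mir30a and Mir30d together held 99.4% of the family's counts in replicate 1 and 99.3% in replicate 2, and Mir30b, Mir30c-1 and Mir30c-2 the remaining 0.642% and 0.7097%. By these counts the family split into a high and a low group that lay far apart, with nothing between Mir30d and Mir30b. Reads of miR-30c-5p can be missing from both Mir30c-1 and Mir30c-2, so the split does not give the share of miR-30c in the family.

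Mir30e (ENSMUSG00000065409.1), whose microRNA is known in human cells to repress the SUMO-conjugating enzyme UBC9, was the highest member. It had 114329 counts and 17929 CPM in replicate 1 and 68519 counts and 16616 CPM in replicate 2, a mean of 17272 CPM ± 929 (SD, n = 2). It ranked 14 among all genes in replicate 1 and 15 in replicate 2. Mir30e made up 47.6% of the family in replicate 1 and 45.6% in replicate 2, the largest share of any member in each library.

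Mir30a (ENSMUSG00000065405.2), whose microRNA is known in human cells to repress the autophagy gene BECN1, came next. It had 82517 counts and 12940 CPM in replicate 1 and 51907 counts and 12587 CPM in replicate 2, a mean of 12764 CPM ± 249.6 (SD, n = 2). Its share of the family was 34.4% in replicate 1 and 34.5% in replicate 2. The SD of its CPM was 1.96% of the mean, the smallest of the 6 members. Mir30e was 1.39-fold above Mir30a in replicate 1 (95% interval 1.37 to 1.40) and 1.32-fold in replicate 2 (1.31 to 1.34), so their order was the same in both libraries.

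Mir30d (ENSMUSG00000065437.1), which together with Mir30b is known from human melanoma as a repressor of the glycosyltransferase GALNT7, was the third. It had 41615 counts and 6526 CPM in replicate 1 and 28858 counts and 6998 CPM in replicate 2, a mean of 6762 CPM ± 334 (SD, n = 2). Mir30a lay 1.98-fold above it in replicate 1 (1.96 to 2.01) and 1.80-fold in replicate 2 (1.77 to 1.82). The ranges of Mir30e, Mir30a and Mir30d over the libraries did not overlap with each other.

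Mir30b (ENSMUSG00000065476.2) led the low group. It had 930 counts and 145.8 CPM in replicate 1 and 679 counts and 165 CPM in replicate 2, a mean of 155 CPM ± 13.3 (SD, n = 2). It was the highest of the 3 low genes in each library, 2.53-fold above Mir30c-1 in replicate 1 (2.24 to 2.87) and 3.40-fold in replicate 2 (2.90 to 3.995).

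The miR-30c genes were the lowest members. Mir30c-1 (ENSMUSG00000065490.1) had 367 counts and 57.6 CPM in replicate 1 and 200 counts and 48.5 CPM in replicate 2, a mean of 53.0 CPM ± 6.40 (SD, n = 2). Mir30c-2 (ENSMUSG00000065567.1) had 245 counts and 38.4 CPM in replicate 1 and 188 counts and 45.6 CPM in replicate 2, a mean of 42.0 CPM ± 5.07 (SD, n = 2). Mir30c-1 was above Mir30c-2 by 1.498-fold in replicate 1 (1.27 to 1.77), but in replicate 2 the ratio was 1.06 with an interval of 0.867 to 1.31 that includes 1. Their order therefore rests on replicate 1. Both genes encode the same 5p arm, and a read of that arm alone fits both. How many miR-30c-5p reads lie in the line for several places was not measured, so these levels do not give the amount of miR-30c.

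Mir384 (ENSMUSG00000065499.1), which carries the same seed but is not among the 6 genes chosen by name, had 9 counts in replicate 1 and 10 in replicate 2, or 1.41 CPM (95% interval 0.645 to 2.68) and 2.42 CPM (1.16 to 4.46). It lay far below each of the 6 members in both libraries. It stood above the level that a count of 0 allows (3 counts, or 0.470 CPM in replicate 1 and 0.727 CPM in replicate 2). With 9 counts in replicate 1, Mir384 missed the minimum of 10 counts in each library and did not count as detected.

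**Figure D1:**
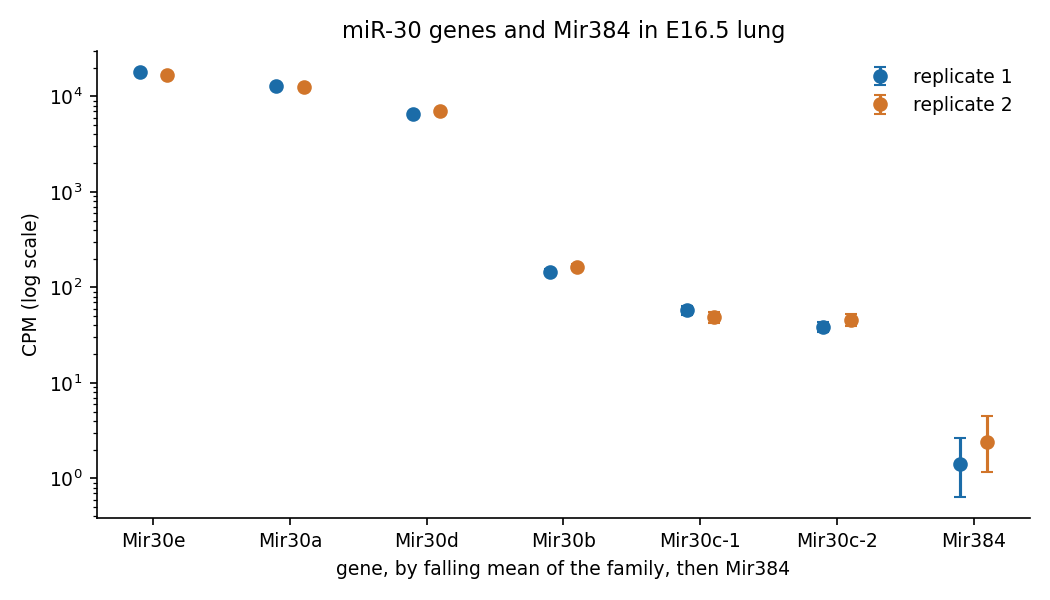
CPM of the 6 miR-30 genes, by falling mean, and of Mir384 in replicates 1 and 2, on a log axis; bars are 95% exact counting intervals of each library. Mir30e, Mir30a and Mir30d lie between 6526 and 17929 CPM, Mir30b, Mir30c-1 and Mir30c-2 between 38.4 and 165 CPM, and Mir384 at 1.41 and 2.42 CPM.

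By the gene counts, each locus paired a high member with a low one. In all 3 pairs the gene that comes first in the direction of transcription had the higher count. The low genes Mir30c-1 and Mir30c-2 share miR-30c-5p, and its reads can be missing from both counts. For their pairs the order and the folds below are therefore those of the counts and do not give the output of the genes.

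On chromosome 4 (mm10), Mir30e and Mir30c-1 lie on the minus strand 2983 bases apart, both within introns of Nfyc, which encodes a subunit of the CCAAT-binding factor NF-Y. Mir30e was 312-fold above Mir30c-1 in replicate 1 (95% interval 281 to 346) and 343-fold in replicate 2 (298 to 396), a mean of 327-fold ± 21.97 (SD, n = 2). The intervals of the 2 libraries overlapped.

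On chromosome 1, Mir30a and Mir30c-2 lie on the plus strand 19361 bases apart. Mir30a is within no other annotated gene, and Mir30c-2 is wholly inside an exon of the long noncoding RNA gene Gm27028. Mir30a was 337-fold above Mir30c-2 in replicate 1 (297 to 383) and 276-fold in replicate 2 (239 to 320), a mean of 306-fold ± 42.9 (SD, n = 2). The intervals overlapped here too, although the ratio in replicate 1 was 1.22 times that in replicate 2.

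On chromosome 15, Mir30d (68341208 to 68341289) and Mir30b (68337415 to 68337510) lie on the minus strand 3697 bases apart. Mir30d overlaps exons of the noncoding gene Gm20732 and, in part, of Gm37296, and Mir30b partly overlaps an exon of Gm26621, all on the same strand. Mir30d was 44.7-fold above Mir30b in replicate 1 (41.9 to 47.8) and 42.5-fold in replicate 2 (39.4 to 45.9), a mean of 43.6-fold ± 1.59 (SD, n = 2). In each library this was the smallest of the 3 ratios, and its intervals lay wholly below those of the others. Hairpins of the 6 genes are 71 to 96 bases long; reads under 30 bases come from arms of 22 or 23 bases where a sequence was given, so counts were not divided by hairpin length.

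**Figure D2:**
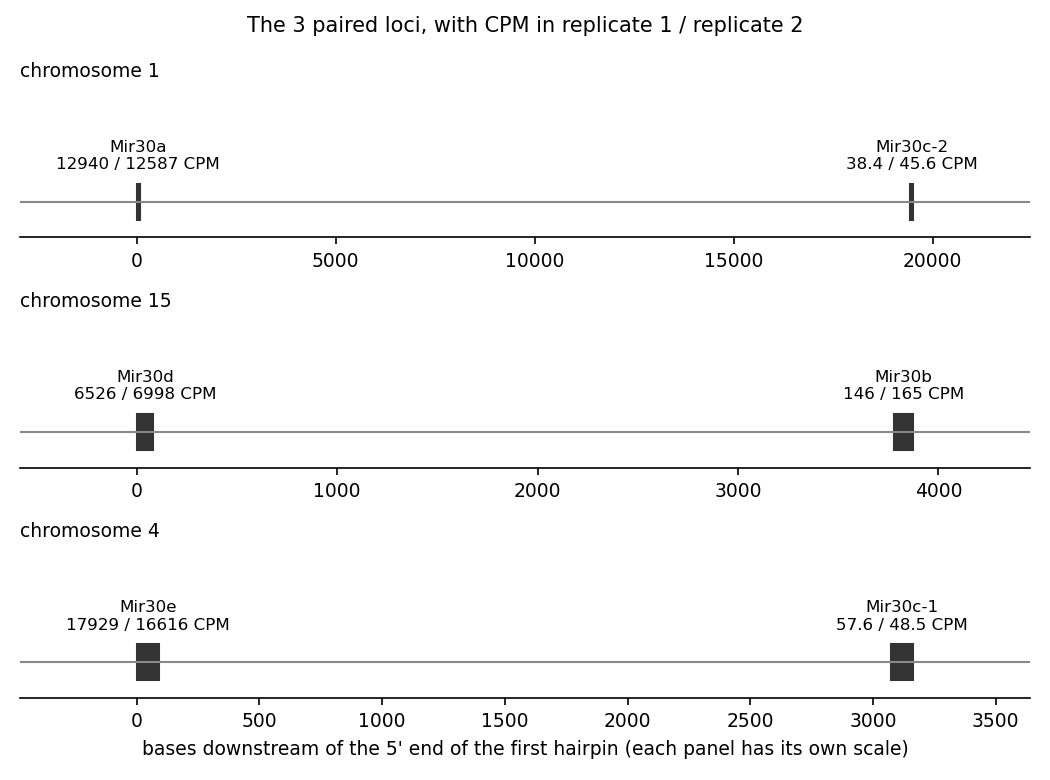
Positions of the hairpins (black boxes) at the 3 paired loci, in bases downstream of the 5′ end of the first hairpin and in the direction of transcription, with the CPM of replicate 1 / replicate 2 above each. In every panel the first hairpin has the higher level by the gene counts. The folds are 327 on chromosome 4, 306 on chromosome 1 and 43.6 on chromosome 15 (means of 2 libraries). Reads of miR-30c-5p can be missing from the lower gene on chromosomes 4 and 1. Each panel has its own scale.

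These ratios were set beside all neighbouring detected genes on 1 strand that lie at most 20 kb apart. There were 114 such pairs, and their median fold between the mean CPM of the genes was 8.15, or 7.56 over the 111 pairs without the miR-30 loci. By this measure Mir30e over Mir30c-1 (326-fold) was the third largest of the 114 differences, Mir30a over Mir30c-2 (304-fold) the fifth and Mir30d over Mir30b (43.6-fold) number 26. A difference of more than 10-fold was seen at all 3 miR-30 loci and at 50 of the other 111 pairs. Neighbouring pairs can share a gene and are not independent, so no test was made. For 2 of the 3 miR-30 loci the lower gene is a miR-30c gene with a repeated 5p arm, and its part in the ratio was not tested.

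**Figure D3:**
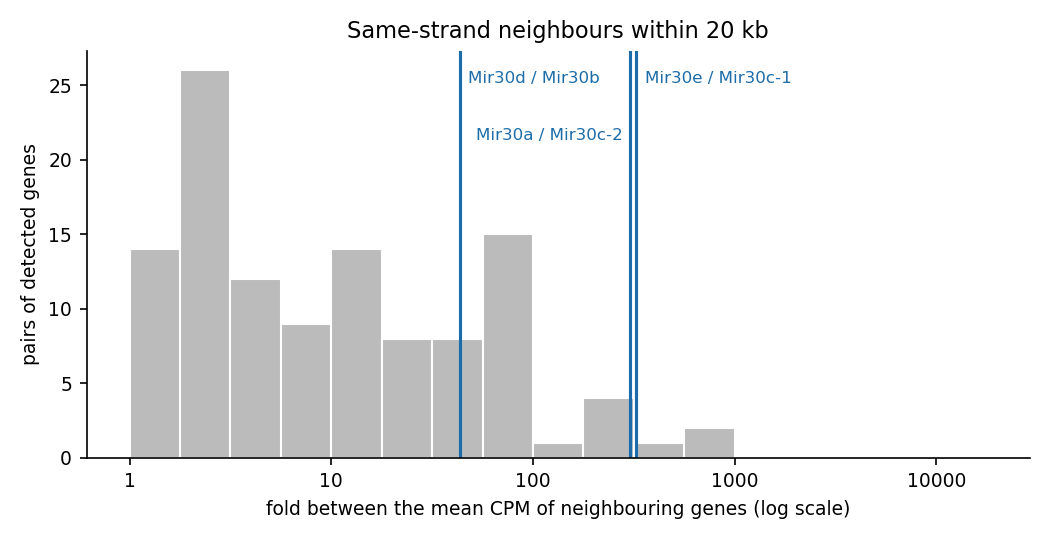
Fold between the mean CPM of neighbouring detected genes on 1 strand within 20 kb (log axis, 114 pairs, grey bars give the number of pairs), with the 3 miR-30 loci as lines. The pairs spread from 1.08-fold to 787-fold around a median of 8.15-fold, and the loci of Mir30e and Mir30a lie towards the right end at 326-fold and 304-fold.

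The locus of Mir30e and Mir30c-1 held 47.8% of the family's counts in replicate 1 (95% interval 47.6 to 48.0) and 45.7% in replicate 2 (45.5 to 46.0). The locus of Mir30a and Mir30c-2 held 34.5% (34.3 to 34.7) in replicate 1 and 34.6% (34.4 to 34.9) in replicate 2. That of Mir30d and Mir30b held 17.7% (17.6 to 17.9) in replicate 1 and 19.6% (19.4 to 19.8) in replicate 2. Chromosome 4 thus held the most and chromosome 15 the least of the family's counts in both libraries. Reads of miR-30c-5p, which chromosomes 1 and 4 both encode, can be missing from these counts. The shares therefore do not give the output of a locus. The share of chromosome 4 was higher in replicate 1 and that of chromosome 15 higher in replicate 2 beyond counting error, while for chromosome 1 the intervals overlapped.

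The genes that share a mature sequence were then set beside those that do not, in this family and in 3 others. In the miR-30 family the genes that share miR-30c-5p, Mir30c-1 and Mir30c-2, were the lowest 2 of 6. In the miR-26 family Mir26a-1 (11.1 CPM ± 0.0146, SD, n = 2) and Mir26a-2 (49.2 CPM ± 3.11, SD, n = 2) share miR-26a-5p and were the lowest 2 of 3, under Mir26b at 31561 CPM ± 382 (SD, n = 2). In the miR-29 family Mir29b-1 (1.19 CPM ± 0.312, SD, n = 2) and Mir29b-2 (1.31 CPM ± 0.141, SD, n = 2) share miR-29b-3p and were the lowest 2 of 4, both under the minimum of 10 counts. The other 2 share none: Mir29a had 128 CPM ± 21.3 (SD, n = 2) and Mir29c 56.2 CPM ± 0.477 (SD, n = 2). Mir29c was thus near Mir30c-1 (53.0 CPM) in level although it shares no mature sequence. The let-7 family was less clear-cut. Its 4 genes with a shared entry had mean levels of 158 to 4270 CPM and its other 6 genes 203 to 62701 CPM. Mirlet7f-2, which shares let-7f-5p, was the highest of the 4, at 4270 CPM ± 146 (SD, n = 2). The ranges overlapped only through Mirlet7a-2 (203 CPM), the lowest of the other 6, which has an entry for only 1 arm. The sequence table is thus incomplete for let-7, and whether Mirlet7a-2 shares its other arm cannot be read from it. By these entries Mirlet7a-2 lay below Mirlet7f-2 and Mirlet7a-1 (268 CPM ± 21.2, SD, n = 2), which have a shared entry. The next lowest of the 6, Mirlet7b, had 5815 CPM ± 272 (SD, n = 2), above all 4 genes with a shared entry. Within the miR-30 family, Mir30b was also low and has no entry. The families were chosen with earlier results of these data known, so these orders are a description only. How far the handling of reads that match several places sets these levels was not tested.

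**Figure D4:**
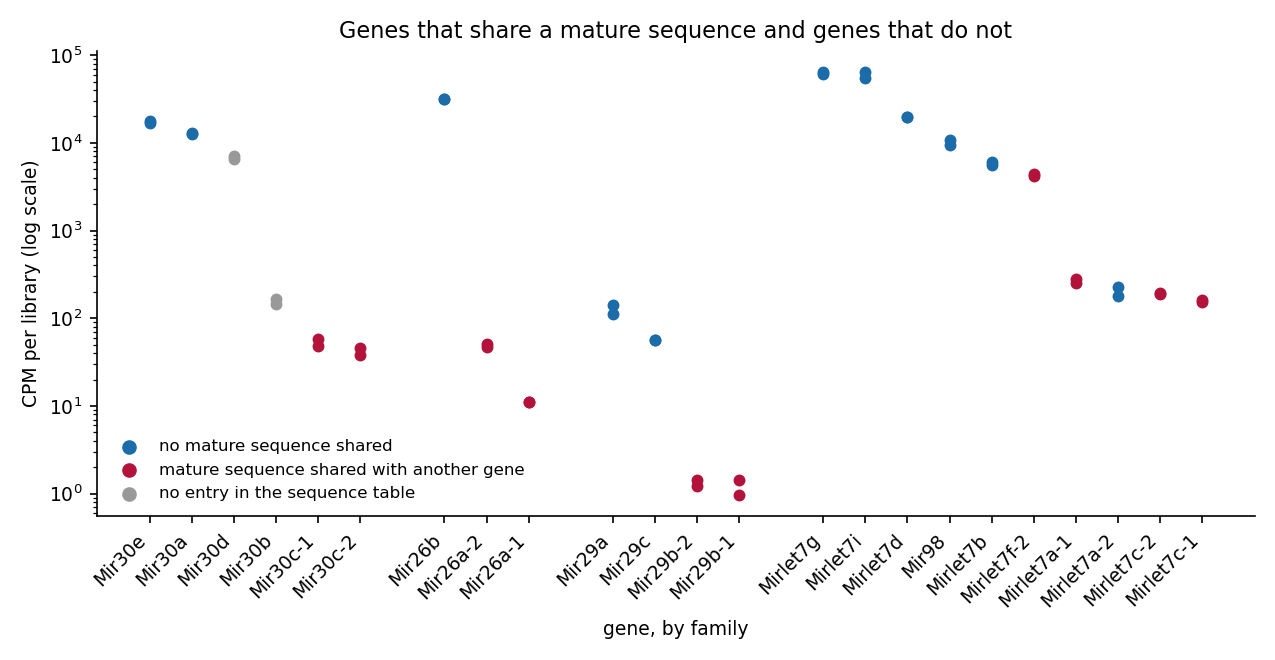
CPM in each of the 2 libraries (log axis) of the genes of the miR-30, miR-26, miR-29 and let-7 families, each by falling mean; red marks genes with a mature sequence that another gene also encodes, blue genes without one, grey genes with no entry. Red genes are the lowest 2 of the miR-30, miR-26 and miR-29 families. In let-7 red and blue overlap only through Mirlet7a-2 (203 CPM), which has an entry for only 1 arm. The highest red gene of let-7 is at 4270 CPM. The blue genes of the miR-29 family, Mir29a and Mir29c, are at 128 and 56.2 CPM.

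The genes nearest to each member in mean level came from other families. Mir30e (17272 CPM) stood between Mir17 (18856 CPM ± 1119, SD, n = 2) and Mir449a (16513 CPM ± 2732, SD, n = 2), and in replicate 2 Mir449a was above it at 18445 CPM. Mir30a stood between Mir351 (13133 CPM ± 911, SD, n = 2) and Mir200c of epithelial cells (10279 CPM ± 499, SD, n = 2), and Mir30d between Mir20a (6808 CPM ± 901, SD, n = 2) and Mir127 (6288 CPM ± 388, SD, n = 2). Mir351 lay above Mir30a in replicate 1 and below it in replicate 2, and Mir20a did so relative to Mir30d, so these upper neighbours do not differ from the members beyond their spread. The same holds for Mir222 and Mir30b, for both neighbours of Mir30c-1 and for Mir412 and Mir30c-2, which also change places between the libraries. Among the low members, Mir30b lay between Mir222 (155.8 CPM ± 6.33, SD, n = 2) and Mir574 (144 CPM ± 24.7, SD, n = 2). Mir30c-1 lay between Mir29c and Mir138-2 (52.4 CPM ± 5.23, SD, n = 2), and Mir30c-2 between Mir666 (42.7 CPM ± 4.46, SD, n = 2) and Mir412 (42.0 CPM ± 2.47, SD, n = 2). Likeness here is the mean level over 2 libraries and nothing more.

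The family differed little between the libraries: the largest fold between replicate 1 and replicate 2 was 1.19, for Mir30c-1 (log2 ratio 0.25, 95% interval -0.0055 to 0.50) and, the other way, for Mir30c-2 (-0.25, -0.53 to 0.035). Mir30e was higher in replicate 1 by 1.08-fold (log2 ratio 0.11, adjusted p = 4.85e-55) and Mir30a by 1.03-fold (0.040, adjusted p = 3.35e-06). Mir30d was higher in replicate 2 by 1.07-fold (-0.10, adjusted p = 6.53e-19), as was its neighbour Mir30b by 1.13-fold (-0.18, adjusted p = 0.0363). Each p is from an exact binomial test, two-sided and conditional on gene totals, adjusted by Benjamini-Hochberg over the 347 detected genes. Such a p compares the reads of 2 libraries and says nothing of how pools vary. Mir30c-1 (adjusted p = 0.104) and Mir30c-2 (adjusted p = 0.155) did not pass the same exact test.

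By this test 4 of 6 members differed, 2 higher in replicate 1 and 2 higher in replicate 2. Over all 347 genes tested 47.0% differed, 16.4% higher in replicate 1 and 30.5% higher in replicate 2. Calls were more frequent at high levels: 34 of the 37 tested genes at 5000 CPM or more passed, and 37 of the 179 under 200 CPM. The count of members is read against that, since Mir30e, Mir30a and Mir30d belong to the first group and Mir30b, Mir30c-1 and Mir30c-2 to the second. The median size of the log2 ratio was 0.14 over the 6 members and 0.16 over all genes tested. Scaling by TMM factors (edgeR) left 2 members higher in replicate 1 and 1 in replicate 2, against 74 and 84 of all genes. Scaling by DESeq2 size factors gave 3 members and 1 member, against 78 and 75 of all genes. Mir30b lost its call with both (adjusted p = 0.114 and 0.173) and without a count minimum (0.0681), and over its alternatives the p of this exact binomial test ranged from 0.0322 to 0.173. Mir30c-1 passed only with DESeq2's size factors (adjusted p = 0.0427).

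Both genes of chromosome 15 were higher in replicate 2, in sign, under each of these scales, and both genes of chromosome 4 higher in replicate 1. The genes of chromosome 1 had opposite signs, with Mir30a higher in replicate 1 and Mir30c-2, which did not pass, higher in replicate 2. In CPM the miR-30 differences were at most 1.19-fold. For Mir30c-1 the log2 ratio of 0.25 in CPM became 0.28 with TMM factors and 0.30 with DESeq2 size factors. Larger differences in CPM included those of Mir122 (5.39-fold), Mir206 (2.19-fold) and Mir451a (1.83-fold), markers of liver, skeletal muscle and red cells. Genes outside the marker lists also differed by more than the miR-30 genes, by up to 5.06-fold. The part of any of these genes in the miR-30 differences was not tested. A difference between pools and one of library preparation cannot be told apart with 1 library per pool.

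**Figure D5:**
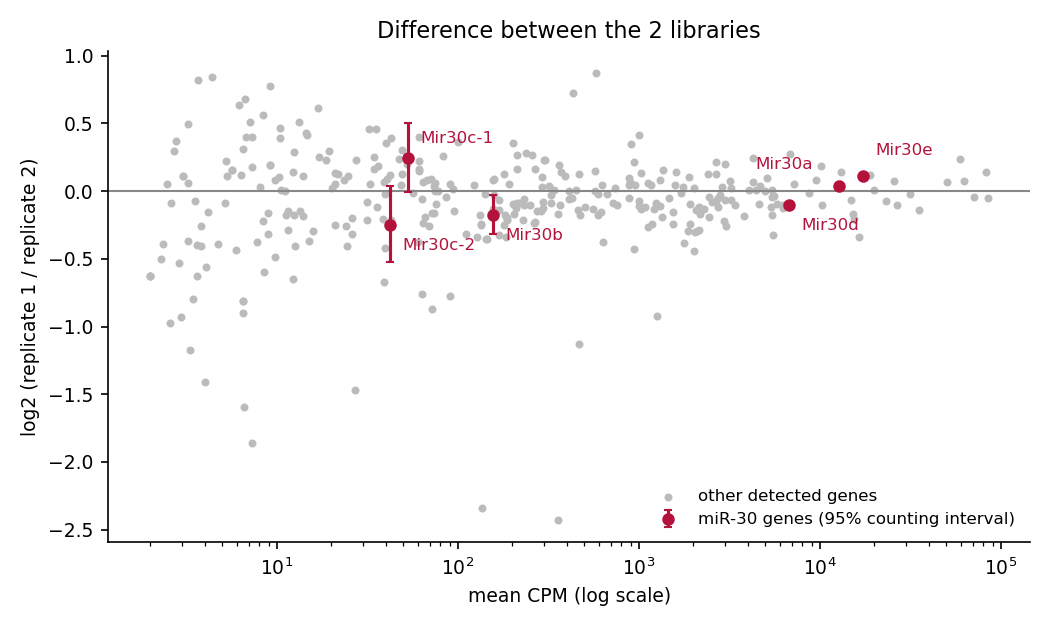
log2 ratio of replicate 1 over replicate 2 against mean CPM (log axis) for the 347 detected genes, with the 6 miR-30 genes in red and their 95% counting intervals. The miR-30 genes lie between -0.25 and 0.25, Mir30d and Mir30b below 0 and Mir30e, Mir30a and Mir30c-1 above it.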

How the data were processed

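Small RNA libraries of embryonic day 16.5 lung were analysed from the authors' deposited tables of raw counts per microRNA gene, 1 table per library, without normalization. Per the deposited file descriptions they refer to mm10 and GENCODE release M4. Not given in the sources used here: aligner, counting program, trimming. The first count column equals the sum of the strand columns in all 1973 genes and was used. The 4 summary lines (unmapped 17.98% and 16.6% of reads in replicates 1 and 2, several places 30.0% and 31.8%, outside genes 2.49% and 2.84%, ambiguous 0) stayed out of totals and tests.

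Identifiers without version were matched to GENCODE M21 (1894 of 1973) and sequences to RefSeq by symbol. At least 10 counts in each library counted as detected, a count of 0 was taken to allow 3 counts, and intervals are exact at 95%. With 1 group there is no contrast for edgeR's quasi-likelihood test, so an exact conditional binomial test with a threshold of 0.05 compared the libraries. It was tested on simulated data. Named genes are the members, Mir384, the detected genes next to each member in mean level, and members of the comparison families. Members and lists were chosen with earlier results of these data known. A planned search of the arms in the genome was made among RefSeq hairpins only. Tools were edgeR 4.0.16, DESeq2 1.42.0, R 4.3.3, Python 3.11.15 and scipy 1.17.1.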

Additional observations from a re-analysis of the deposited data

How the results depend on the processing

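The family's share of 3.70% became 3.81% with sense counts only, 1.82% with all reads in the table as denominator, 2.28% with reads of several places added to the gene counts and 4.05% without the most abundant gene. Without replicate 1 or replicate 2 it ranged from 3.65% to 3.76%. Per base of hairpin, an alternative added after seeing the data, Mir30a over Mir30c-2 became 363-fold and Mir30d over Mir30b 51.1-fold, and Mir30e over Mir30c-1 316-fold. With a replicate left out, the 3 ratios ranged from 276 to 337, 42.5 to 44.7 and 312 to 343. Mean locus shares were 46.7% for chromosome 4, 34.6% for chromosome 1 and 18.7% for chromosome 15, with sense counts only as with all counts. Leaving out 1 of 2 replicates always moves a mean by less than the SD, so it is no check of these shares. Over the alternatives, 3 or 4 members and 153 to 163 of all genes differed between libraries. Of all genes, 52 to 78 were called higher in replicate 1, so the direction of calls depended on the scale. Levels relative to all reads were 0.491 to 0.492 times those given for every member. Calls of Mir30b and Mir30c-1 depended on the scale, as given above, and the other 4 members kept their side of the threshold under every scale. No paired analysis was possible because the libraries form a single group. Depth limits Mir30c-1, Mir30c-2 and Mir384, with at most 367 counts.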

Other observations

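GENCODE M21 places a further gene, Mir30f, at the same bases as Mir30e on the opposite strand of chromosome 4. It has no row of its own in the tables, and the opposite-strand column at Mir30e held 1 count in each library, so the level of Mir30e does not include more than that from the other strand. The other 5 members had 0 opposite-strand counts in both libraries. The line for reads that match several places held 16.1 times the counts of the whole miR-30 family in replicate 1 and 17.9 times in replicate 2.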
